A study of Mus musculus with 2 samples.

Results

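Myf5, Myod1, Myog and Myf6, the myogenic basic helix-loop-helix (bHLH) factors, were described together with the bHLH repressor Msc (musculin) and the inhibitors Id1, Id2 and Id3 in single-cell RNA sequencing of mouse limb muscle tissue. The 8 genes were chosen by symbol, and all 8 were found among the 32285 genes of both count tables. The study held 1 library of embryos at E12.5 and 1 of embryos at E15.5 (E counts days of embryonic development), each from wild-type C57Bl/6 embryos with forelimbs and hindlimbs together. Tissue was dissociated mechanically and with trypsin and run on the 10x Genomics 3-prime platform, and the number of embryos behind each library was not given in the sources used here. Neither age had a replicate library, so no test between ages was made, and age cannot be told apart from library. Intervals are given at the 95% level and take in counting error alone.

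Myogenic bHLH factors switch on the muscle program by pairing with E proteins and binding short DNA sites called E-boxes. Myf5 and Myod1 commit cells to the muscle lineage, Myog drives terminal differentiation, and Myf6 acts early in the embryo and again in mature fibres. Msc is a bHLH repressor of muscle precursors, and Id proteins lack a DNA-binding region and tie up E proteins, which keeps the factors from binding.

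On GRCm38, Myf6 (chr10:107492853-107494737, minus strand) lay 6719 bases from Myf5 (chr10:107482908-107486134, minus strand). Myog was at chr1:134289989-134292548 and Myod1 at chr7:46376474-46379099, both on the plus strand. Msc, at chr1:14753346-14755992 on the minus strand, was overlapped by Gm9947 on the opposite strand. The RefSeq promoter table on GRCm38.p6 held windows for 4 of the 8 genes. They ran from 250 bases before to 50 after the start that this table sets for the gene. They are shown because the E-box is the site through which the bHLH factors act, and the 6-letter E-box CANNTG, which reads the same on both strands, is in capitals. Each sequence is written 5′ to 3′ on the strand of its gene.
Myog: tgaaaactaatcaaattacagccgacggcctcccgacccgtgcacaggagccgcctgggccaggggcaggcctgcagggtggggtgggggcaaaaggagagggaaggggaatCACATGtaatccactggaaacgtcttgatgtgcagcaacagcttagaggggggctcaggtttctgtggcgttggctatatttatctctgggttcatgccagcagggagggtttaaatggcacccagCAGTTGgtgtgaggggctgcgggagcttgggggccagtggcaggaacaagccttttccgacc
Myf5: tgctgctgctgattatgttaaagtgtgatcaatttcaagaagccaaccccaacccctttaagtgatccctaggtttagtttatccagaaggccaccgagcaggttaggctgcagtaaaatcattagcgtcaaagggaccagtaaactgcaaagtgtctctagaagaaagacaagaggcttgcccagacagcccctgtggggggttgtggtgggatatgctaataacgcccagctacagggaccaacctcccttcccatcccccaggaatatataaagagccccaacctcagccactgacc
Id2: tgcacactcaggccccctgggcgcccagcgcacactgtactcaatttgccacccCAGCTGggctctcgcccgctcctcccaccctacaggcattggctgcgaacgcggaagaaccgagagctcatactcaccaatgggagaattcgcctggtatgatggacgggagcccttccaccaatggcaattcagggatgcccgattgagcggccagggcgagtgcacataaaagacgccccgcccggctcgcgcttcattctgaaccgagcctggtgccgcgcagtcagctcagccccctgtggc
Id3: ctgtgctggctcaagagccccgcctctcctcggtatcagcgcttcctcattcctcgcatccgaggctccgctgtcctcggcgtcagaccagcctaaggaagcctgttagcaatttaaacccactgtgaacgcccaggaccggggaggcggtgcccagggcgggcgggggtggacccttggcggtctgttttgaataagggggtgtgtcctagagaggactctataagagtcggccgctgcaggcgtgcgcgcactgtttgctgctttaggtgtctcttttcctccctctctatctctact
The windows were chr1:134289754-134290053 for Myog, chr10:107486085-107486384 for Myf5, chr12:25096043-25096342 for Id2 and chr4:136143572-136143871 for Id3. The RefSeq starts can differ from the gene limits used here. The windows of Id2 and Id3 lay wholly inside those limits (chr12:25093799-25097140 and chr4:136143497-136145755). The RefSeq start of Myog lay inside its gene interval given above. The Myog window held 2 E-boxes, CACATG starting 138 bases and CAGTTG starting 12 bases before the RefSeq start, the latter inside the Myog interval above. The Id2 window held 1, CAGCTG starting 196 bases before its RefSeq start and inside the gene limits. The windows of Myf5 and Id3 held none. Of 32851 promoter windows of this length, 72.3% held at least 1 E-box and 16.3% held CAGCTG, so a match is common and describes only these letters.

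The muscle class, rebuilt from clusters of each library, held 594 of 11001 cells (5.40%) at E12.5 and 398 of 3916 cells (10.2%) at E15.5. None of the 8 genes entered the clustering, and neither did proliferation or sex-linked genes. All 26 muscle markers, none of them a member, had UMIs (unique molecular identifiers, each marking a captured RNA molecule) in the class at both ages. At E12.5 the markers were 13.6-fold (Fgfr4) to 201-fold (Mymx) higher in the class than in all other cells. At E15.5 they were at least 10.8-fold higher except for Pax3, which at 2.14 CPM (UMIs of a gene scaled to a fixed total per class) was not higher than the 2.37 CPM of other cells. Muscle cells had a median of 3745 UMIs in the E12.5 library and 14218 in the E15.5 library, so shares of cells with a UMI were compared after thinning every cell to 2000 UMIs. No barcode of the muscle class was shared between the libraries, and 17 were shared among all deposited barcodes. Summed over the class, 13 connective tissue markers were at 1331 and 1390 CPM, against 6158 and 17407 in the connective tissue class, and none was at 0. The part of these markers in the results was not tested. Among them Tcf4, also an E protein gene, was at 764 and 599 CPM in the muscle class. The sum can therefore not be read as RNA of other cells alone.

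Myf5, Myod1, Myog and Msc were nearly confined to muscle cells among the named classes, whereas the Id genes were found across the limb. Outside muscle, in named classes of at least 20 cells, Myf5 did not exceed 1.79 CPM at either age. Myod1 and Msc did not exceed 11.2 CPM there, a value that was 2 UMIs for each gene in 36 immune-like cells. Myog reached 8.57 CPM in 30 Schwann-like cells at E12.5, which was 1 UMI. In connective tissue cells Myog was at 4.32 and 5.58 CPM and Msc at 2.93 and 2.52 CPM. After thinning, Myog and Msc were each found in 1 of 116 endothelial cells (0.862%) in the E12.5 library and 1 of 132 (0.758%) in the E15.5 library, which is the background for these genes. Endothelial cells had a median of 3912 and 10398 UMIs, against 3745 and 14218 in muscle cells.

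Id levels in other classes differed from class to class. Chondrocyte-like cells held 787 CPM of Id1 at E12.5 and 559 CPM at E15.5, the highest among the named classes. Id3 was at 496 and 522 CPM in endothelial-like cells and at 453 and 296 CPM in connective tissue cells. Erythroid-like cells were low in Id1 at E12.5 with 44.5 CPM (14.4 to 104, 5 UMIs), and mast-like cells at E15.5 held 2.03 CPM of Id1 and 160 CPM of Id2. At E15.5 the mast-like cells, with a median of 17801 UMIs per cell, were the class with least Id1 and Id3, at 6.76 CPM of Id3 (3.24 to 12.4). Before thinning, 2.86% of them had Id1 and 8.57% had Id3, which is the background for these genes in that library.

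**Figure D1:**
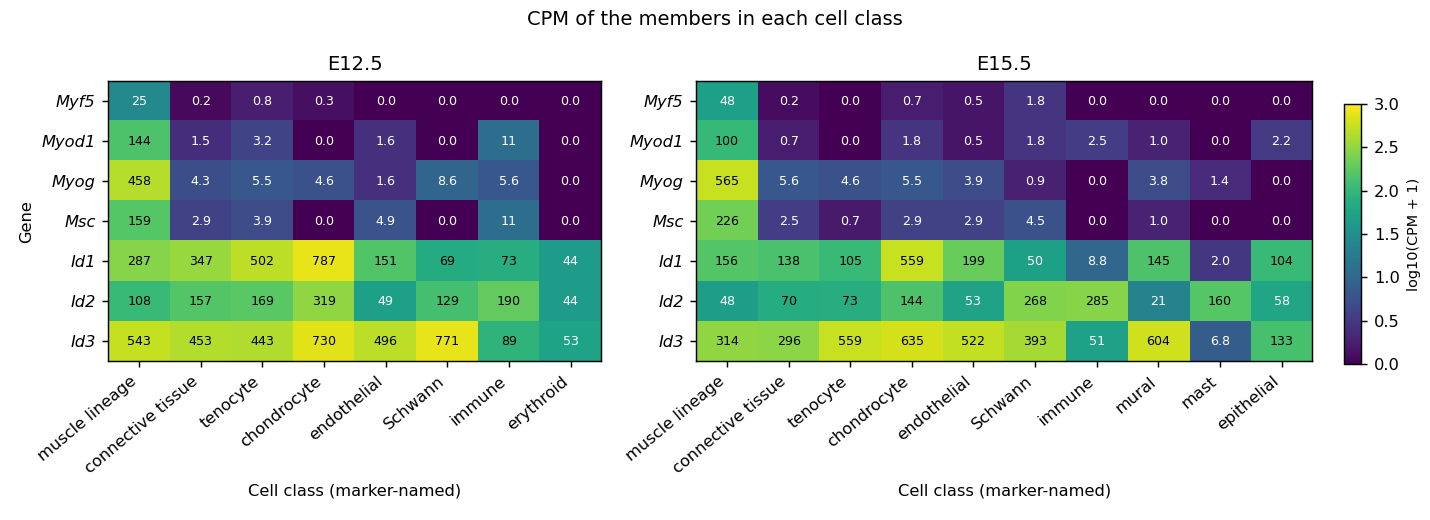
Heat map of CPM of 7 members (rows) in each marker-named cell class (columns) at E12.5 and E15.5, printed in each cell and coloured on a log10 scale after adding 1, for classes of at least 20 cells. Myf5, Myod1, Myog and Msc were at 11.2 CPM or less outside the muscle lineage, while Id1, Id2 and Id3 were spread over most classes.

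Across the whole muscle class, Myf5 and Msc were higher at E15.5, Myod1 was lower, and Id1, Id2 and Id3 were all lower. Myf5, the earliest of the commitment factors, was at 24.6 CPM (18.8 to 31.7, 60 UMIs) at E12.5, then 47.9 CPM (42.5 to 53.7, 291 UMIs) at E15.5, giving a log2 ratio of 0.96 (0.55 to 1.39). Myod1 was at 144 CPM (129 to 160), then 100 CPM (92.5 to 109), giving a log2 ratio of -0.52 (-0.71 to -0.33). Myog was at 458 CPM (431 to 485), then 565 CPM (546 to 584), giving a log2 ratio of 0.30 (0.21 to 0.40). The commitment factors Myf5 and Myod1 thus lay on opposite sides of no difference, with intervals that did not meet.

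Msc, the repressor, was at 159 CPM (143 to 175) at E12.5, then 226 CPM (214 to 238) at E15.5, giving a log2 ratio of 0.51 (0.35 to 0.68). Id2 had the lowest ratio of the Id genes, with 108 CPM (95.6 to 122), then 47.5 CPM (42.2 to 53.3), giving a log2 ratio of -1.19 (-1.43 to -0.94). Id1 went from 287 to 156 CPM, a log2 ratio of -0.88 (-1.02 to -0.73), and Id3 from 543 to 314 CPM, a log2 ratio of -0.79 (-0.89 to -0.69). For every member but Myf6 the counting intervals of both ages were apart.

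Myf6 was close to absent at both ages. It had 2 UMIs among 594 muscle cells at E12.5 and 7 among 398 at E15.5, and no cell had more than 1, so no direction was read from it. After thinning it was found in 0 of 543 cells of the E12.5 library, which allows a share of up to 0.552%, and in 2 of 390 cells at E15.5.

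These ratios were read against all genes. Of the members, 7 of 8 passed the minimum of 20 UMIs over both muscle classes, as did 11200 genes in all, and the median gene had a log2 ratio of -0.36. At least 1.5-fold higher at E15.5 was 1 member, Myf5, where 11.3% of all genes were. At least 1.5-fold lower were 3 members, Id1, Id2 and Id3, where 37.9% of all genes were, so that 3 of 7 was near the background. Relative to the median gene, the log2 ratios were 1.32 for Myf5, 0.87 for Msc, 0.67 for Myog, -0.16 for Myod1, -0.43 for Id3, -0.51 for Id1 and -0.83 for Id2. On that scale Myod1 was close to the typical gene, at least 1.5-fold higher were Myf5, Msc and Myog with 22.8% of genes, and only Id2 of the Id genes was at least 1.5-fold lower, with 21.0%.

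**Figure D2:**
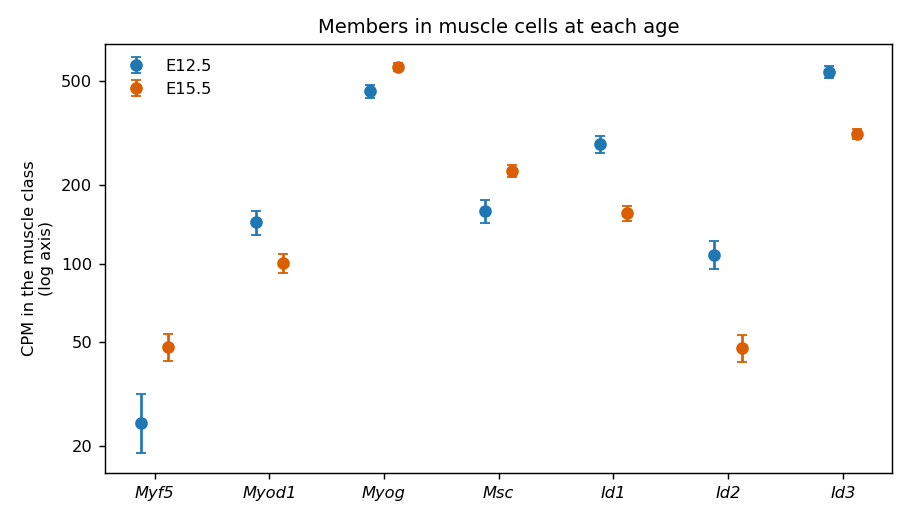
CPM (log axis) of 7 members summed over the muscle class of the E12.5 library (594 cells) and the E15.5 library (398 cells), with bars for the exact 95% Poisson interval. By CPM, Myf5, Myog and Msc were higher at E15.5, and Myod1, Id1, Id2 and Id3 were lower. The share of thinned cells with Myog went the other way, with 36.8% at E12.5 and 30.3% at E15.5.

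To see where along differentiation each gene was used, muscle cells of each library were ordered by the summed CPM of 14 sarcomere genes, the parts of the contractile apparatus, and cut into 5 ranges of equal cell number. A range of a score is not a cell type. A gene's mean position is the average percent rank of cells, weighted by its CPM, so that a gene spread evenly lies near 50. The background was made of genes past a minimum of UMIs in each library, leaving out the members and the 14 sarcomere genes. Myf5 at E12.5, with 60 UMIs, and Myf6 at both ages were under that minimum. Over 3977 such genes at E12.5 the median position was 48.5, with 90% of genes between 39.9 and 64.0. Over 6052 genes at E15.5 it was 48.2, with 90% between 39.9 and 60.8.

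The order of the factors was the same at both ages, with Myf5 and Msc at the start, Myod1 in the second part and Myog at the end. Myf5 lay at 31.1 at E12.5 and at 29.1 at E15.5, Msc at 31.4 and 31.6, beside the precursor gene Pax7 at 29.0 and 33.0. Myod1 lay at 67.6 and 68.5, and Myog at 80.5 and 85.0, just before the fusion gene Mymk at 86.2 and 87.2. The distance between Myog and Myf5 was 49.3 points at E12.5 and 55.9 points at E15.5. Myf5 and Msc were thus neighbours in this order at both ages.

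At the level of single ranges, Myf5 was at 41.1, 48.3, 29.0, 6.51 and 1.78 CPM from range 1 to range 5 at E12.5. At E15.5 it was at 96.3, 63.2, 65.8, 13.4 and 6.64 CPM. The E15.5 excess of Myf5 was thus clearest in range 1, where the intervals were 24.4 to 65.0 and 79.3 to 116 CPM. Msc was at 270, 250, 224, 73.8 and 5.34 CPM at E12.5 and at 393, 344, 285, 116 and 15.8 CPM at E15.5, highest in range 1 at both ages. Cut at the same sarcomere limits at both ages instead, a setting chosen after the data were seen, Myf5 and Msc were higher at E15.5 in the lowest interval, with log2 ratios of 0.95 (0.16 to 1.85) and 0.38 (0.07 to 0.70). In the middle interval both were lower at E15.5, with -1.76 (-3.19 to -0.45) and -1.29 (-1.69 to -0.90). The sarcomere genes behind these limits differed with age themselves. Over the muscle class they summed to 16588 CPM at E12.5 and 8332 at E15.5, with Ttn at 6036 and 970 and Tnnt2 at 309 and 485. Equal sarcomere CPM at the 2 ages therefore need not mean an equal stage.

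Along ranges cut within each library, Myod1 and Myog rose from lower values in range 1 at E15.5. Myod1 was at 59.4, 62.4, 116, 208 and 253 CPM from range 1 to 5 at E12.5. At E15.5 it was at 12, 40.7, 90.5, 192 and 150 CPM, with its highest value in range 4 and not in range 5. In range 1 its intervals were 38.8 to 87.1 CPM at E12.5 and 6.58 to 20.2 CPM at E15.5, so range 1 held less Myod1 at the later age. With the shared limits the lowest interval held 44.4 and 25 CPM, a log2 ratio of -0.83 (-1.67 to 0.10) that held 0. Myog was at 22.9, 14.1, 99.5, 771 and 1240 CPM at E12.5 and at 0.860, 11.3, 30.4, 642 and 2094 CPM at E15.5. In range 1 at E15.5 this was 1 UMI of Myog among 80 cells. The sarcomere RNA that defines range 1 was itself higher at E12.5, with a median of 585 CPM against 189 at E15.5, and endothelial-like cells held 104 and 63.7 CPM of the same genes. With the shared limits, both factors were higher at E15.5 in the second and middle intervals. The log2 ratios were 0.57 and 0.59 for Myod1 and 1.55 and 2.20 for Myog. Myod1 was lower in the fourth and last intervals, at -0.66 and -1.71, and Myog in the lowest, at -3.09.

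Id1 and Id3 took different courses along the order at the 2 ages, while Id1, Id2 and Id3 were all lowest in range 5 at both. Id3 was at 558, 586, 591, 610 and 397 CPM from range 1 to 5 at E12.5, nearly level through range 4. At E15.5 it was at 483, 398, 399, 232 and 76.4 CPM, stepping down towards differentiated cells. Id1 was at 331, 256, 319, 345 and 203 CPM at E12.5 and at 272, 216, 161, 94.6 and 50.6 CPM at E15.5. In range 1 the Id1 intervals of both ages overlapped (280 to 390 and 243 to 303 CPM), while in range 5 they were far apart (168 to 244 and 38.7 to 65.0 CPM). Id2 was at 128, 147, 129, 102 and 46.3 CPM at E12.5 and at 77.4, 45.9, 74.8, 31.3 and 10.8 CPM at E15.5. Mean positions of Id1 and Id3 were 48.8 and 48.6 at E12.5, at the middle of the background genes. At E15.5 they were 35.7 and 37.3, where 1.4% and 2.0% of the background genes lay earlier. Id2 lay at 42.0 and 39.8.

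**Figure D3:**
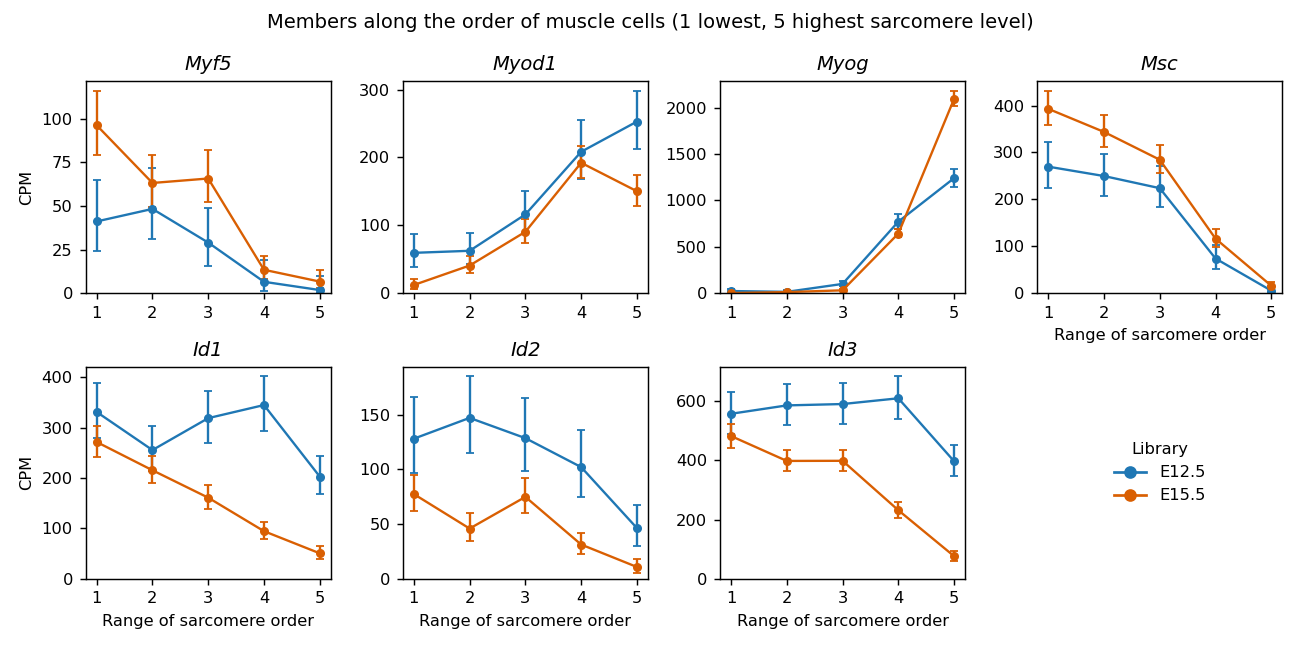
CPM of 7 members in 5 equal ranges of muscle cells ordered by sarcomere RNA, from lowest (1) to highest (5), at E12.5 and E15.5, with exact 95% Poisson intervals. Myf5 and Msc were highest in the early ranges and Myog in range 5 at both ages, while Id1 and Id3 stayed nearly level through range 4 at E12.5 and stepped down at E15.5.

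The same contrast was read in clusters. At each age some muscle clusters had Pax7, the gene of muscle precursors, among their leading genes, and the others were led by sarcomere or fusion genes. Pax7-led clusters held 388 cells of the E12.5 library and 310 of the E15.5 library, and sarcomere-led clusters 206 and 88 cells, which was 34.7% (30.9 to 38.7) and 22.1% (18.1 to 26.5) of muscle cells. Whole-class values depend on these shares, so each kind was compared on its own. The clusters are ranges of a continuum too, and at E15.5 a Pax7-led cluster of 150 cells also had Rbm24 among its leading genes.

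In sarcomere-led cells the 3 Id genes were far lower at E15.5. Id1 was at 255 CPM (223 to 290) at E12.5, then 61.5 CPM (48.5 to 76.9) at E15.5, giving a log2 ratio of -2.05 (-2.44 to -1.67). Id2 was at 68.4 CPM (52.5 to 87.7), then 8.79 CPM (4.39 to 15.7), giving a log2 ratio of -2.96 (-4.04 to -2.02). Id3 was at 473 CPM (429 to 519), then 77.5 CPM (62.8 to 94.5), giving a log2 ratio of -2.61 (-2.94 to -2.29). The median gene of these cells had a ratio of -0.47, and relative to it the ratios were -1.58 for Id1, -2.49 for Id2 and -2.14 for Id3.

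In Pax7-led cells the Id genes were lower by less. The log2 ratios there were -0.76 (-0.92 to -0.59) for Id1, -1.19 (-1.46 to -0.93) for Id2 and -0.64 (-0.76 to -0.52) for Id3, against -0.33 for the median gene. The intervals of the 2 kinds of cluster did not meet for any of the 3 genes, and whether the difference between them exceeds the variation between embryos was not tested, since there was 1 library per age. Of the members, 6 of 8 had 20 UMIs or more in the sarcomere-led clusters. At least 1.5-fold lower there were 4 members, Myod1 and the 3 Id genes, where 44.1% of 7935 genes were, and among those with 20 UMIs 1, Myog, was at least 1.5-fold higher, where 13.7% were. In Pax7-led clusters these shares of all genes were 36.2% lower and 12.1% higher.

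Read within each age, Id1 and Id3 differed less between the 2 kinds of cluster at E12.5 than at E15.5, and Id2 was lower in sarcomere-led cells already at E12.5. Sarcomere-led over Pax7-led cells, the log2 ratio was -0.26 (-0.49 to -0.03) for Id1, -0.95 (-1.38 to -0.53) for Id2 and -0.31 (-0.48 to -0.14) for Id3 at E12.5. At E15.5 these ratios were -1.55 (-1.91 to -1.22), -2.71 (-3.73 to -1.85) and -2.28 (-2.59 to -1.98). At E12.5 the sarcomere-led cells were of 2 clusters. In the 158 cells led by Rbm24 and Mymx, Id3 was at 583 CPM (524 to 647), like the 585 CPM of Pax7-led cells, and in the 48 cells led by Myl4 it was at 238 CPM (185 to 301).

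Clustering both libraries together put cells of the 2 ages side by side. The cluster led by Mymx, a fusion gene, held 151 cells of E12.5 and 92 of E15.5. In it Id1 was at 314 and 49.4 CPM, a log2 ratio of -2.67 (-3.10 to -2.25). Id2 had a ratio of -2.76 (-3.65 to -1.95) and Id3 of -2.49 (-2.79 to -2.20), while Myog had 0.59 (0.48 to 0.71) and Myod1 -0.37 (-0.66 to -0.08). In the more advanced cluster led by Mylpf, with 50 and 18 cells, the ratios were -0.82 (-1.55 to -0.09) for Id1 and -1.78 (-2.47 to -1.13) for Id3. Id2 had 8 and 4 UMIs there, and its ratio of -1.44 (-3.62 to 0.46) had an interval that held 0. Id1 and Id3 were therefore lower at E15.5 in both joint clusters, and Id2 in the first.

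RNA of genes used as markers of other classes was measured in the same cells. In sarcomere-led cells the 4 connective tissue genes Prrx1, Pdgfra, Osr1 and Twist2 summed to 85.0 CPM at E12.5 and 29.6 at E15.5, which was 5.90% and 4.73% of their sum in the connective tissue class. All 13 connective tissue markers summed to 21.4% and 6.58% of the level in that class, and 11 chondrocyte markers to 2.10% and 0.523% of the level in chondrocyte-like cells. The 13 take in the E protein gene Tcf4, at 764 and 599 CPM in the whole muscle class. Their sum can therefore not be read as RNA of other cells alone. The connective tissue class held 347 and 138 CPM of Id1, so its Id1 level was also lower at E15.5, with a log2 ratio of -1.33 (-1.40 to -1.27). The part of such RNA in the Id levels was not tested.

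Cells of both sexes, told apart by Xist and Y-linked UMIs, showed the Id difference. In sarcomere-led clusters the log2 ratio of Id1 was -2.28 in male cells (55 and 16 cells) and -1.91 in female cells (87 and 54 cells), and that of Id3 was -2.15 and -2.63. Male and female cells come from different embryos, so each library held at least 1 embryo of either sex.

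The activating factors also differed between the 2 kinds of cluster. Myod1 was at 82.2 CPM (68.5 to 97.9) and 92.6 CPM (84.2 to 102) in Pax7-led cells, a log2 ratio of 0.17 (-0.12 to 0.47). In sarcomere-led cells it was at 248 CPM (217 to 283), then 130 CPM (111 to 152), giving a log2 ratio of -0.93 (-1.23 to -0.63). Myod1 was thus lower at E15.5 within sarcomere-led cells, while in Pax7-led cells no difference was detectable at this depth. Relative to the median gene of each kind, the ratios were -0.47 in sarcomere-led and 0.50 in Pax7-led cells. Sarcomere-led cells, which held more Myod1 at both ages, were also a smaller share of the class at E15.5 (34.7%, then 22.1%). The part of each in the lower Myod1 of the whole class was not tested. Leaving doublets in gave -0.47 for Myod1 in sarcomere-led cells.

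Myog in sarcomere-led cells was at 1145 CPM (1076 to 1217), then 2078 CPM (1999 to 2159), giving a log2 ratio of 0.86 (0.76 to 0.97). In Pax7-led cells it was at 51.5 CPM (40.8 to 64.2), then 173 CPM (161 to 185), giving a log2 ratio of 1.75 (1.41 to 2.10). The Pax7-led value rested on where the clusters were cut, since it was 0.22 at a finer clustering and 0.01 with both libraries clustered together. Myf5 in Pax7-led cells was at 38.5 CPM (29.3 to 49.7), then 58.6 CPM (52.0 to 65.9), giving a log2 ratio of 0.61 (0.20 to 1.04). Msc in those cells was at 243 CPM (219 to 269), then 280 CPM (265 to 295), giving a log2 ratio of 0.20 (0.04 to 0.37). Msc in sarcomere-led cells was near its floor at both ages, with 14 and 23 UMIs, and Myf5 had 1 and 8 UMIs there.

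**Figure D4:**
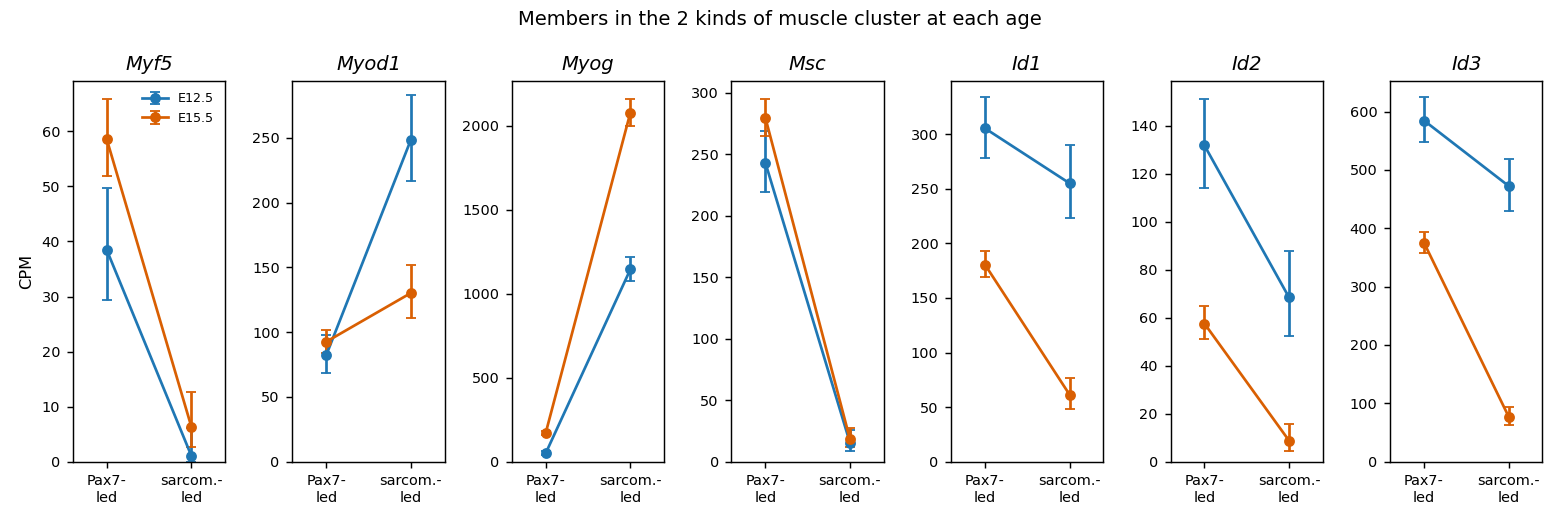
CPM of 7 members in Pax7-led clusters (388 cells at E12.5, 310 at E15.5) and sarcomere-led clusters (206 and 88 cells), with exact 95% Poisson intervals. Id1, Id2 and Id3 in sarcomere-led cells were at 255, 68.4 and 473 CPM at E12.5 and at 61.5, 8.79 and 77.5 CPM at E15.5.

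Detection per cell was compared in 543 muscle cells of E12.5 and 390 of E15.5 thinned to 2000 UMIs, leaving out 51 and 8 shallower cells. Myf5 was found in 4.05% of cells (2.56 to 6.07) at E12.5, then in 7.69% (5.25 to 10.8) at E15.5. Msc was found in 23.9% (20.4 to 27.8) and 32.3% (27.7 to 37.2), Id3 in 62.1% (57.8 to 66.2) and 36.9% (32.1 to 41.9), Id1 in 42.5% (38.3 to 46.8) and 20.8% (16.9 to 25.1). Id2 was found in 17.3% (14.2 to 20.8) and 6.92% (4.61 to 9.91). Without thinning, Myf5 was found in 9.26% and 35.9% of cells, Msc in 37.0% and 71.9% and Id3 in 78.3% and 70.9%. Endothelial cells thinned the same way held Id1 in 25% and 23.5% and Id3 in 51.7% and 55.3%, shares that stayed close between ages. Connective tissue cells thinned the same way did not, with Id1 in 42.3% and 19.3%, Id2 in 24.8% and 12% and Id3 in 53.1% and 37.4%, lower at E15.5 as in muscle.

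Myog was found in 36.8% (32.8 to 41.0) of thinned muscle cells at E12.5, then in 30.3% (25.7 to 35.1) at E15.5, against its higher CPM at E15.5, so no direction was read from it. Cells with Myog held more of it at E15.5, with a mean of 2.58 and 3.65 UMIs per positive cell at equal depth. The highest cell held 21 UMIs of Myog at E12.5 and 191 at E15.5 before thinning. For shares by kind of cluster, the cells were thinned again in a separate random draw. In sarcomere-led cells Myog was found in 169 of 193 cells (87.6%) at E12.5 and in all 80 cells at E15.5. In the same cells Id3 was found in 56.0% (48.7 to 63.1) at E12.5, then in 16.3% (8.95 to 26.2) at E15.5, and Id1 in 40.9% (33.9 to 48.2) and 6.25% (2.06 to 14.0).

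Over the whole class, Myog was found more often beside Myod1 and less often beside Myf5 and Msc. Among cells with Myod1, 59.8% (50.4 to 68.8) had Myog at E12.5, against 30.5% of cells without Myod1. At E15.5 these shares were 53.8% (39.5 to 67.8) and 26.6%. Among cells with Myf5, 2 of 22 (9.09%) had Myog at E12.5, against 38.0% of cells without Myf5, and 2 of 30 (6.67%) at E15.5, against 32.2%. Among cells with Myog, 7.0% (3.9 to 11) had Msc at E12.5, against 33.8% of cells without Myog, and 11% (6.0 to 18.1) at E15.5, against 41.5%. Part of these shares went with the kind of cluster. In sarcomere-led cells at E12.5, Myog was found in 85.3% of cells with Myod1 and 89.0% of cells without, a difference of -3.65 points (-14.3 to 5.69), and at E15.5 all 80 such cells had Myog. In Pax7-led cells Myod1 and Myog still went together, with differences of 11.3 points (1.71 to 25.2) and 27.9 points (14.0 to 43.6). Cells with Myf5 there had no Myog at either age (0 of 28 and 0 of 41), with differences of -10.6 points (-14.4 to 1.85) and -15.2 points (-20.0 to -5.87). Msc with Myog had differences of -12.5 points (-24.9 to 4.69) and -29.6 points (-39.4 to -14.6), so the E12.5 intervals of Myf5 and Msc held 0. No thinned cell held 3 or more of the 4 myogenic factors at either age.

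Of the Id genes, Id3 had the widest gap between ages in how it stood to Myog over the whole class. At E12.5 Id3 was found in 61.0% (53.9 to 67.8) of cells with Myog and 62.7% of cells without, a difference of -1.68 points (-10.2 to 6.66). At E15.5 these shares were 16.9% (10.7 to 25) and 45.6%, a difference of -28.6 points (-36.9 to -18.9). Id1 was found in 40% and 44% at E12.5, a difference of -4.02 points (-12.4 to 4.60), and in 10.2% and 25.4% at E15.5, a difference of -15.2 points (-22.1 to -6.90). Id2 was less often found with Myog in the whole class at both ages, with differences of -10.8 points (-16.6 to -4.36) and -8.71 points (-12.9 to -3.90). The separate draw by kind of cluster gave differences in Pax7-led cells as well. At E12.5 they were 11.2 points (-5.94 to 27.7) for Id1, -12.4 (-19.9 to 2.35) for Id2 and -7.41 (-24.6 to 8.77) for Id3. At E15.5 they were -17.4 (-25.5 to -3.66), -6.48 (-11.0 to 4.07) and -26.2 (-37.2 to -10.6). In sarcomere-led cells at E12.5 all intervals held 0. At E15.5 the Id1 and Id3 differences in Pax7-led cells thus lay near the -15.2 and -28.6 points of the whole class. The part of the kind of cluster in the whole-class differences was not tested.

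**Figure D5:**
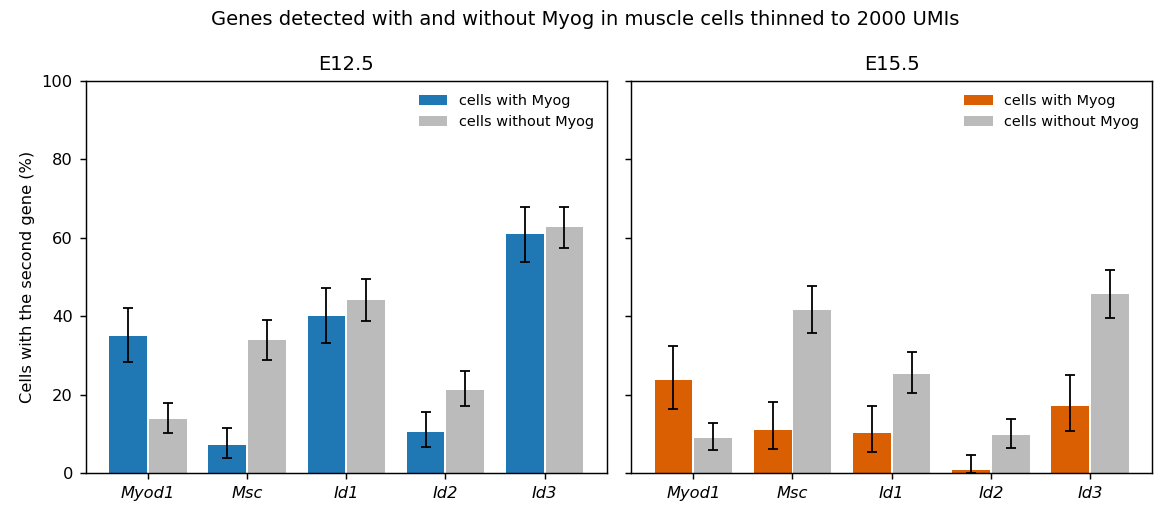
Share of muscle cells (%) with a UMI of Myod1, Msc, Id1, Id2 or Id3 among cells with Myog (coloured) and without Myog (grey) after thinning to 2000 UMIs, at E12.5 (200 and 343 cells) and E15.5 (118 and 272 cells), with exact 95% binomial intervals. Id3 was found in 61.0% and 62.7% at E12.5 and in 16.9% and 45.6% at E15.5.

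The deeper E15.5 library allowed thinning to 10000 UMIs in 324 muscle cells, a setting chosen after the data were seen. Of the 101 cells with Myf5, 90 (89.1%, 81.4 to 94.4) had Msc, against 59.6% of cells without Myf5. Only 9 of them (8.91%) had Myog, against 52.0%, and 27 (26.7%) had Myod1, against 57.0%. Of the 125 cells with Myog, 72.0% (63.3 to 79.7) had Myod1, against 32.2% of those without, and 46.4% (37.4 to 55.5) had Id3, against 83.9%. At this depth 61 cells held none of the 4 myogenic factors, 148 held 1, 108 held 2 and 7 held 3. The common pairs were Myod1 with Myog in 83 cells and Myf5 with Myod1 in 20, while Myf5 with Myog and no other factor was found in 2 cells.

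Cells were split by a UMI of Top2a or Mki67, genes of dividing cells, after thinning, which marked 336 of 543 E12.5 cells and 212 of 390 E15.5 cells. In the separate draw by kind of cluster, the mark was found in 73.4% of Pax7-led and 39.9% of sarcomere-led cells at E12.5. At E15.5 it was found in 65.5% and 8.75%. No class known to be free of division was at hand, so the background of the mark was not measured and it is no call of division. Myog was lower in marked cells at both ages, with log2 ratios of -1.51 (-1.69 to -1.33) and -2.01 (-2.12 to -1.90) over cells without. Id2 was higher in them, with 0.80 (0.38 to 1.24) and 0.93 (0.54 to 1.33), and so was Msc, with 0.59 (0.25 to 0.94) and 0.26 (0.10 to 0.42). Myf5 had 1.20 (0.23 to 2.30) at E12.5 but 0.14 (-0.21 to 0.49) at E15.5, and Myod1 had -0.31 (-0.63 to 0.01) and 0.33 (0.08 to 0.58). Marked cells were deeper, with medians of 4074 against 3391 UMIs at E12.5 and 16925 against 11998 at E15.5.

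Genes with courses most like each factor were named by the lower of 2 Pearson correlations, 1 per age, over 10 ranges of the order, among 3689 genes. These are descriptions, and the points share the cells, the library and the order by which they were made. Msc was most like Pax7 (0.98 at E12.5, 0.99 at E15.5), Igfbp5, Nfib, Fabp5 and Crabp2. Myog was most like Rb1 (0.97 and 0.98), Gm28653, Mymx, Tmsb4x and Zfp106. Myod1 was most like Ppp1r14b (0.91 and 0.95), Rbm24, St3gal5, Pfn1 and Lrrn1, and Myf5 most like Basp1 (0.95 and 0.98), Scd2, Nectin1 and Dlc1.

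Other genes of the pathway were read from a list of 54, of which 48 passed the minimum. At least 2-fold higher at E15.5 were 4, where 4.71% of all genes were, and at least 2-fold lower were 17, where 19.1% were. The median log2 ratio of the list was -0.57, against -0.36 over all genes tested. The E proteins that pair with the myogenic factors were close to the typical gene for Tcf3 (-0.36, -0.60 to -0.11) and Tcf4 (-0.35, -0.43 to -0.27) and lower for Tcf12 (-0.93, -1.06 to -0.80). The fourth Id gene, Id4, had 12 and 9 UMIs.

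Of 8 upstream regulators of the factors, 6 were at least 2-fold lower, where 19.1% of all genes were, and their median log2 ratio was -1.28. Eya1, a cofactor of homeobox proteins, was at 86.5 and 15.1 CPM, a log2 ratio of -2.52 (-2.89 to -2.16), and Eya2, Eya4 and Six4 lay between -1.76 and -1.23. Lbx1, which marks migrating limb muscle precursors, had -0.19 (-0.64 to 0.27). Of the Mef2 partners, Mef2c went from 704 to 195 CPM, a log2 ratio of -1.85 (-1.96 to -1.75), and Mef2a and Mef2d were less than 2-fold lower at -0.87 and -0.30. Myf5 was thus higher while several of the genes listed upstream of it were lower.

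Among repressors and inhibitors, Hey1, a Notch target, was at 61.9 and 15.6 CPM, a log2 ratio of -1.99 (-2.37 to -1.61). Hes6 had -1.14, Twist1 -1.87, Zeb1 -1.43, Snai1 -1.35 and Mdfi -2.19, while Hes1 had -0.61, Heyl -0.40 and Snai2 0.48. Bhlhe40 and Mdfic were at least 2-fold higher, with 1.31 (0.05 to 2.84) and 1.02 (0.33 to 1.77), the first on 6 and 37 UMIs. Rb1 had -0.94 and Smarcd3 -0.25. Of 8 genes read for BMP signalling, which drives Id transcription in many cells, 6 passed the minimum. Of these, 2 were at least 2-fold lower, where 19.1% of all genes were, and none was at least 2-fold higher. The median log2 ratio of the 6 was -0.55. Smad7 had -2.10 (-2.52 to -1.69) and the receptor Bmpr1a -0.84, and Smad6 had 16 UMIs at either age, a ratio of -1.32. Bmp4 had -0.19, Bambi -0.26 and Bmp7 0.58, each with an interval that held 0. The part of BMP signalling in the Id levels was not tested.

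Of 15 target genes of the factors, 2 were at least 2-fold higher, where 4.71% of all genes were. At least 2-fold lower were also 2, where 19.1% of all genes were. Ckm, the muscle creatine kinase, was at 1.64 CPM (4 UMIs) and 54.9 CPM, a log2 ratio of 5.07 (3.7 to 6.95). Cav3, the muscle caveolin, was at 11.9 and 83.1 CPM, a log2 ratio of 2.80 (2.26 to 3.40). Klhl41 had -1.40 and Mef2c is given above. Cdkn1c, a cell-cycle inhibitor, had 0.98, and Mymx 0.84, while Cdkn1a had -0.85, Dll1 -0.64, Mymk -0.53, Chrng -0.47, Rbm24 -0.42, Cdh15 -0.30, Des -0.12 and Chrna1 -0.07. Targets of the same factors therefore lay on both sides of the median gene.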

How the data were processed

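Single-cell libraries of limb muscle at 2 ages were analysed, with 1 library per age and groups taken from the age label. The deposited values are raw UMI counts, and Cell Ranger 4.0.0 wrote them per the file headers; the submitters' processing notes also name mm10 and Seurat 4.3.0. No barcode had under 500 UMIs. The 8 members and all lists were chosen with earlier results of these data known.

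Cells with at least 500 genes and under 10% mitochondrial UMIs were kept, from 12941 and 5780 barcodes. Doublets were scored against 2 simulated doublets per cell, and the highest scores were removed at 0.8% per 1000 barcodes (1270 and 190 cells); the automatic threshold marked 1 and 5 cells, so it had not worked. Libraries were clustered separately (2000 variable genes without the members, proliferation and sex genes, 30 components, 15 neighbours, Leiden resolution 1.0) and clusters named from marker lists of 14 classes. UMIs were summed per class to CPM, with exact Poisson intervals. Log2 ratios have the exact conditional interval, shares Clopper-Pearson and differences of shares Newcombe intervals. For 0 cells the limit is 3 counts. Cells are not replicates, so no test was run. Named genes were the members, list genes at 20 CPM or past 2-fold, the 5 genes most like each factor, and Bmp4, Bambi and Bmp7. Some genes that this rule names are not reported here. The interval code was tested on simulated data. Python 3.11.15, numpy 2.4.6, scipy 1.17.1, pandas 2.3.3, scikit-learn 1.9.0, leidenalg 0.10.2 with igraph 0.11.9, and matplotlib 3.10.9 were used. Alternatives covered doublets, cell filters, clustering, scaling, sex, depth, thinning and the order. 11 kept barcodes were shared between the libraries and left in.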

Additional observations from a re-analysis of the deposited data

Results flagged for a closer look

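By CPM, Id1 was lower at E15.5 in muscle but higher in endothelial-like cells, with 151 CPM at E12.5, then 199 CPM at E15.5. The log2 ratio there was 0.40 (0.07 to 0.74). After thinning, the share of endothelial cells with Id1 was not higher, at 25% (17.4 to 33.9), then 23.5% (16.5 to 31.6). Id2 was higher at E15.5 in immune-like cells (36 and 56 cells), with a log2 ratio of 0.59 (0.06 to 1.15). Id3 was higher in tenocyte-like cells (649 and 147 cells), with 443 and 559 CPM and a log2 ratio of 0.33 (0.18 to 0.49). Each was listed because its counting interval lay on the other side of 0 from that of muscle in the same pair of libraries. The differences between classes were not tested, since each age is 1 library.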

How the results depend on the processing

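No paired analysis was possible because each age is 1 library. Over 14 alternatives to the cells, scaling and clustering, the log2 ratio in the muscle class stayed between -1.01 and -0.45 for Id1, -1.51 and -0.76 for Id2, -0.95 and -0.36 for Id3, and 0.84 and 1.39 for Myf5. In sarcomere-led clusters over 12 it stayed between -2.28 and -1.58 for Id1 and between -2.63 and -2.14 for Id3. Id2 had no UMI in male sarcomere-led cells at E15.5, and over the other 11 it stayed between -3.07 and -2.46. Myod1 in the class had the opposite sign in Pax7-led clusters, 0.17. Members past the filter on low counts that were at least 1.5-fold higher numbered 1 and became 2 with no doublets removed, with the automatic doublet threshold and in Pax7-led clusters, 3 in the clusters shared by both ages and relative to the median gene, and 4 relative to it without that filter, Myf6 on 9 UMIs included. Those at least 1.5-fold lower numbered 3, 4 in sarcomere-led clusters, and 1 relative to the median gene with or without the filter. In sarcomere-led clusters 1 was higher, and 2 with no doublets removed, the automatic doublet threshold, at least 1000 genes, all barcodes, resolution 2.0, joint clustering, female cells and relative to the median gene. List genes at least 2-fold lower numbered 17, and 11 relative to the median gene. The share with Myod1 in cells with Myf5 minus cells without at E15.5 was -10.8 points, -17.5 without thinning and -30.2 at 10000 UMIs. The same difference for Myog was -25.6, -44.1 and -43.1 points. In Pax7-led cells at E15.5, thinned in a separate draw, the difference for Myod1 was 4.81 points (-4.84 to 19.4), an interval that held 0. The share with Myog in cells with Myod1 minus cells without at E12.5 was 29.3 points and 39.6 without thinning. The distance from Myf5 to Myog along the order stayed between 48.0 and 51.8 points at E12.5 and between 52.2 and 58.2 at E15.5 over 9 alternatives. A position was called moved past 5 points. The stage clusters, joint clusters, 10000 UMI setting and shared ranges were added after the data were seen. Depth limits Myf6 at both ages and Myf5 in sarcomere-led cells.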

Other observations

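Muscle cells of both ages were also put in the same 5 intervals of sarcomere CPM, an alternative chosen after the data were seen. The sarcomere genes differed with age themselves, so cells of the 2 ages in 1 interval need not be at an equal stage. In the middle interval, with 175 cells of E12.5 and 73 of E15.5, Myog was at 225 and 1028 CPM, a log2 ratio of 2.20 (2.0 to 2.44). Msc in that interval was at 187 and 76.4 CPM, a log2 ratio of -1.29 (-1.69 to -0.90), and Id3 at 600 and 163 CPM, a log2 ratio of -1.88 (-2.13 to -1.63). Myf5 had the opposite direction there to that of the whole class, with 22.2 and 6.57 CPM (16 and 8 UMIs), a log2 ratio of -1.76 (-3.19 to -0.45), and so did Myod1, with 140.0 and 210.3 CPM, a log2 ratio of 0.59 (0.25 to 0.93). Myod1 also had 0.57 (0.07 to 1.09) in the second interval, and -0.66 (-1.07 to -0.26) and -1.71 (-2.37 to -1.09) in the fourth and last. In the lowest interval, with 94 and 154 cells, Myf5 was at 41.4 and 79.8 CPM, a log2 ratio of 0.95 (0.16 to 1.85), Id3 had -0.28 (-0.51 to -0.05) and Myog had -3.09 (-4.75 to -1.50), on 9 and 7 UMIs. In the fourth interval, with 101 and 47 cells, Id3 was at 634 and 79.9 CPM, a log2 ratio of -2.99 (-3.46 to -2.54).

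Outside the named classes, Myog was at 104 CPM (42 UMIs) and Msc at 49.7 CPM (20 UMIs) in an unnamed E15.5 cluster of 217 cells led by Car2 and Hemgn, whose median was 1296 UMIs. The other unnamed clusters held at most 22.3 CPM of Myog.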
